A study of Mus musculus with 104 samples.

Results

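The cytosolic ribosomal protein genes described here were chosen by symbol and level. A RefSeq gene was taken where its symbol is Rpl or Rps followed by a number, with at most one further letter and digit, or is Rplp0, Rplp1, Rplp2 or Rpsa. Symbols of pseudogenes and of the Rps6k kinases were dropped, and a mean of at least 1 CPM (the read count of a gene scaled to a common library size) over the libraries was required. Of the 24060 RefSeq genes, 84 carried such a symbol and 78 reached that level, 47 of the large subunit and 31 of the small subunit, on 19 chromosomes. Rps13, at a mean of 1.34 CPM, lay just inside the limit, and Rps27, at 0.940 CPM, just outside it.

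The libraries came from the cerebral cortex of wild type C57BL/6 mice aged 6 months. They cover 13 lines with 4 females and 4 males each, and each line is named in the labels for a gene (Zswim6, Tbc1d8, Rgs9, Rasgef1a, Ppp1ca, Pcdh20, Morf4l1, Kdm3b, Hrk, Gsg1l, Ece2, Dach1 and Arpp19). Every mouse is labelled wild type, so a line is a set of control mice; the label that gives it is tagged as a batch, and line and batch cannot be told apart. Cortex is a mixture of cell types, and in such bulk RNA fewer cells of a type and less RNA per cell cannot be told apart.

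The ribosome is built from ribosomal RNA and one copy of almost every ribosomal protein, so cells make these proteins in matched amounts. Their mRNAs begin with a C followed by a run of pyrimidines, the terminal oligopyrimidine tract, through which mTORC1 and the RNA-binding protein Larp1 control how many of them are translated. In neurons these mRNAs are found in axons and dendrites as well as in the cell body. Mammalian genomes hold many processed pseudogenes of these genes, which matters for how their reads are counted.

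The libraries held a median of 28.4 M counted reads, from 3.39 to 33.5 M; the lowest was Kdm3b female replicate 22, and the next held 23.9 M. Sex-linked transcripts went against the label in 3 libraries (Rasgef1a female replicate 39, Rasgef1a male replicate 40 and Rgs9 female replicate 43), so results by sex are given with and without them. The 8 markers of excitatory neurons summed to between 8145 and 9664 CPM in every library, while the 7 markers of choroid plexus had a median of 4.62 CPM in females and 4.79 CPM in males, with 1 male library at 317 CPM. The ribosomal protein genes together took 0.245% to 0.322% of the reads.

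The start of transcription was read from RefSeq, on build GRCm38.p6. A promoter entry was found for 58 of the 78 genes. The window examined holds the 15 bases before the annotated start and the first 15 transcribed bases, so the first transcribed base is the 16th. The sequences printed here are those of some of the genes that differed between sexes or lines, together with Rpl15, whose window shows the tract most plainly. Capitals mark the longest unbroken run of C and T in the window, which can lie before the annotated start. In Rps15a, Rpl5 and Rps15 the marked run lies wholly before that start. Each sequence is written 5′ to 3′ on the strand of the gene.
Rpl15 (chr14:18270972-18271001, minus strand): gtgggagaaagCCTTCTTCCTTTCCTCTgg
Rpl7a (chr2:26910792-26910821, plus strand): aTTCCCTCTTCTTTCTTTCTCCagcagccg
Rpl14 (chr9:120571502-120571531, plus strand): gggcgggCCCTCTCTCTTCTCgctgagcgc
Rpl13a (chr7:45128731-45128760, minus strand): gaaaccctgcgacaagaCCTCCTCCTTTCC
Rps18 (chr17:33955651-33955680, minus strand): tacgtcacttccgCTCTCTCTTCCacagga
Rps15a (chr7:118116133-118116162, minus strand): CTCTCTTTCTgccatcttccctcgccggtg
Rps2 (chr17:24720048-24720077, plus strand): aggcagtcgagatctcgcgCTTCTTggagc
Rpl5 (chr5:107900513-107900542, plus strand): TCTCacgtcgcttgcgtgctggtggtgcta
Rps15 (chr10:80292416-80292445, plus strand): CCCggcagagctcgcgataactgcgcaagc
Rpl10 (chrX:74270801-74270830, plus strand): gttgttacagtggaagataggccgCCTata

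The longest run spanned 21 bases in Rpl7a and 17 in Rpl15, and 3 in Rps15 and Rpl10. Over the 58 genes the median longest run was 7 bases, against 5 over all 27025 genes with an entry. The letters CTTTC, searched in the same window, stood on the strand of the gene in 25.9% of the ribosomal protein genes and in 4.76% of all genes, and on the opposite strand in 5.17% and 4.21%. The letters CTTTT, which can share 1 base with CTTTC, stood on the strand of the gene in 10.3% and 3.68%, and on the opposite strand in 1.72% and 3.44%. A C at the annotated start followed by 4 pyrimidines was found in 12 of the 58 genes (20.7%) and in 3.01% of all genes. A match is a description of these letters only.

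Measured levels spanned a wide range. The deposited FPKM values, which divide reads by transcript length and depth, had a mean of 330 in Rplp1 and 2.05 in Rpl27, a 161-fold range with a median over genes of 16.8. The 5 highest were Rplp1, Rpl4, Rps15, Rpl41 and Rpl8. Rplp1, an acidic protein of the stalk that recruits elongation factors, ran from 283 to 395 FPKM with a median of 328. Rpl4, which lines the tunnel through which the new protein leaves, ran from 210 to 264 FPKM with a median of 236. Rps15, needed for export of the small subunit from the nucleus, ran from 200 to 320 FPKM around 233, so that the ranges of Rpl4 and Rps15 overlapped.

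Rpl41, the smallest of the ribosomal proteins, had a median of 193 FPKM and Rpl8, near the site of peptide bond formation, one of 181. At the other end, Rpl27 ran from 1.38 to 3.07 FPKM with a median of 2.02. Rps13 had a median of 2.23, Rpl34 of 2.51, Rpl24 of 2.54 and Rps23 of 2.72 FPKM. These 5 lowest genes overlapped each other over the libraries and none of them overlapped any of the 5 highest. In the plot of levels both subunits spread over the same range.

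**Figure D1:**
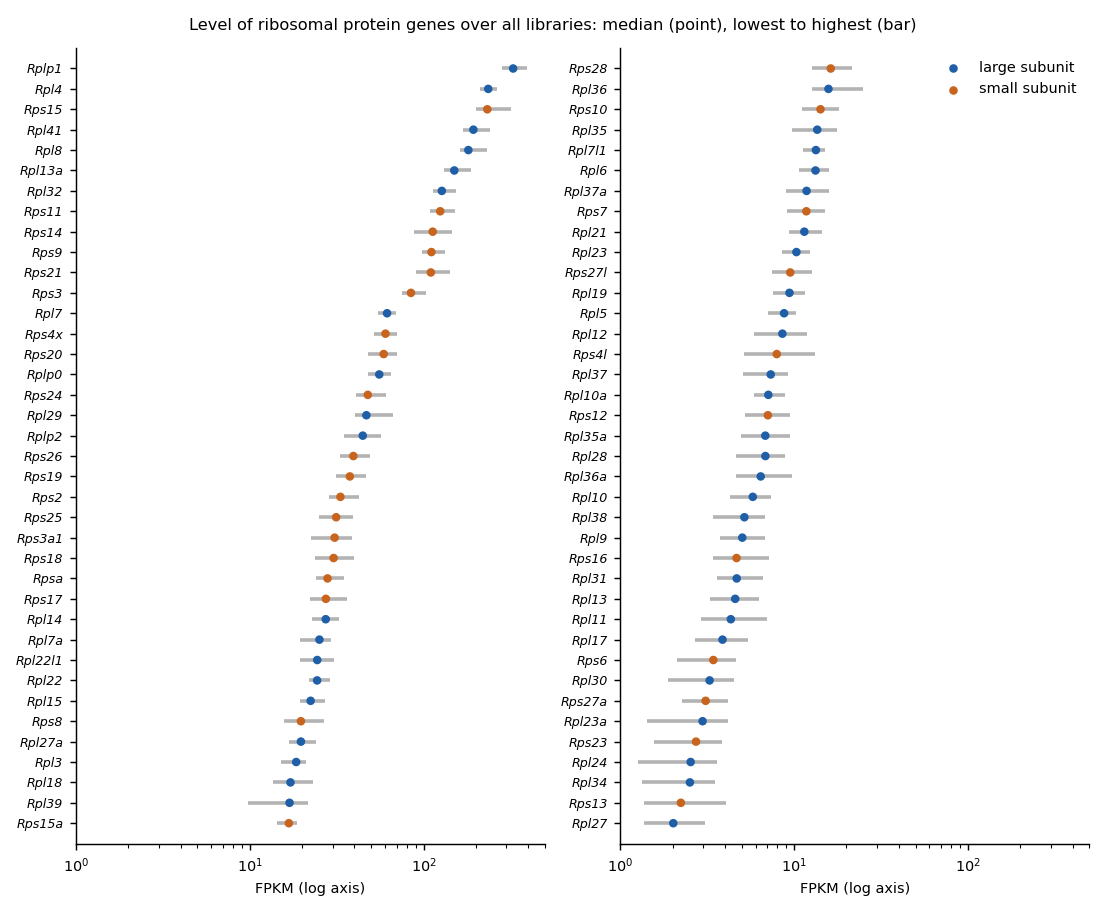
FPKM (log axis) of 76 of the 78 cytosolic ribosomal protein genes, ordered by mean; points are the median over all libraries and bars run from the lowest to the highest library, in blue for the large and orange for the small subunit. Levels run from a mean of 2.05 (Rpl27) to 330 (Rplp1), and the spread over libraries of a gene is small beside the distance between genes.

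The level of a gene went with how much of its sequence is its own. A protein-coding GENCODE vM21 transcript was found for 77 genes. For each of these, every stretch of 50 coding bases was looked up in the annotated transcripts of all other genes, on both strands. Of the 77, 76 shared at least 1 such stretch of their transcript with another gene, with a median of 10 other genes. These were mainly annotated pseudogenes, except for Rps10, Rps16, Rps20, Rpl7l1, Rpl23 and Rplp2. The 27 genes with no unique coding stretch had a median of 5.12 FPKM. The 38 with up to 50% unique had one of 24.8, and the 12 above 50% had one of 113. Across the 77 genes Spearman's rho between the share of unique coding stretches and mean FPKM was 0.66; the genes share libraries, aligner and counting. Measured over whole transcripts rho was lower, at 0.46 for stretches of 50 bases and 0.58 for stretches of 100, and with the number of other genes that share a stretch it was −0.39.

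Rps3, at the entry of the mRNA channel, had 91.9% of its coding stretches to itself and a median of 84.6 FPKM, and Rpl8 had 91.3%. Rpl7a shared stretches with 123 other genes, 119 of them pseudogenes, and Rpl21 with 82, of which 81 are pseudogenes. Rpl7a had 6.68% of its coding stretches to itself and a median of 25.2 FPKM, and Rpl21 had none and 11.4 FPKM. Over whole transcripts, 18.8% of stretches of 50 bases were unique in Rpl7a and 73.8% in Rpl21. By coding stretches, exceptions went both ways. Rpl41 had no unique coding stretch and 193 FPKM, but its coding sequence holds only 75 bases. Over its whole transcript 56.1% of stretches of 50 bases were unique. Rpl7l1, close to a yeast protein of ribosome assembly, had 78.1% of its coding stretches unique and 13.3 FPKM.

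Examples of the coding sequence show how far the sharing goes; each is 50 bases of the GENCODE transcript, 5′ to 3′ in lower case throughout, positions counted from the A of the start codon. The stretch of Rpl10 was in 10 other genes, that of Rps2 in 33, that of Rpl21 in 44 and that of Rpl7a in 45.
Rpl10, 124 to 173: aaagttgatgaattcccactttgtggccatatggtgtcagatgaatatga
Rps2, 653 to 702: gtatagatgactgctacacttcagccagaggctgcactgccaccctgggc
Rpl21, 96 to 145: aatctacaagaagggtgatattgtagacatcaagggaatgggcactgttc
Rpl7a, 429 to 478: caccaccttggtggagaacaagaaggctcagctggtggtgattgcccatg

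How reads that fit several of these genes were counted is not given in the sources used here, and its part in the levels was not tested. The levels also differed between the deposited RefSeq and Ensembl values. FPKM depends on the reads counted and on the length used, and the part of each in this difference was not tested. In the deposited Ensembl FPKM the median over the same 78 genes was 7.07 in place of 16.8. Rplp1 was near in both, at a mean of 330 and 282, while Rpl13a, also part of a complex that silences inflammatory mRNAs, had 151 and 27.5. Rps19, the gene most often mutated in Diamond-Blackfan anaemia, had 37.8 and 4.93, and Rps20 had 59.0 and 7.75. The comparisons between libraries use the RefSeq counts of a single gene, and a share of lost or gained reads that is the same in every library does not change them.

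**Figure D2:**
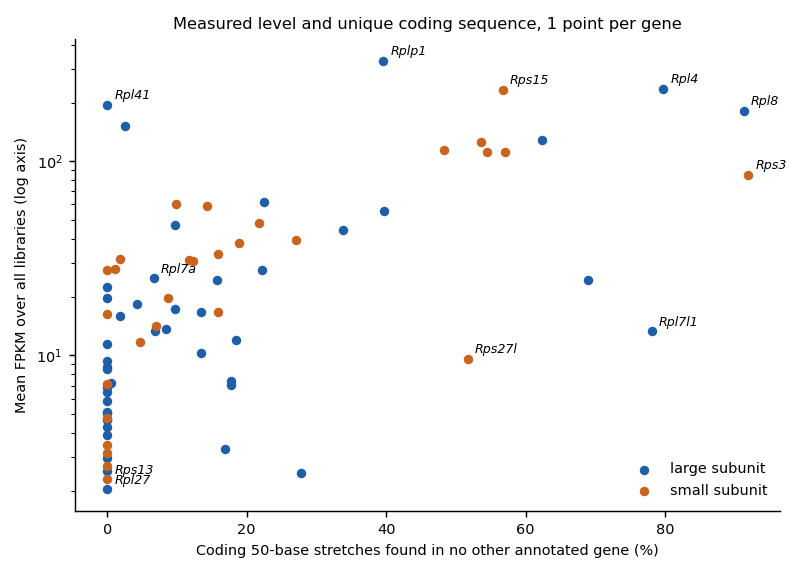
Mean FPKM over all libraries (log axis) against the percentage of coding 50-base stretches found in no other annotated gene, 1 point for each of 75 of the 77 genes, blue for the large and orange for the small subunit. The 27 genes at 0% have a median of 5.12 FPKM, and 11 of the 12 genes above 50%, whose median is 113, are drawn. Rpl41, with only 75 coding bases, is high at 0%, and Rpl7l1 is low at 78.1%.

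Symbols that come in pairs differed widely in level. Rpl3l, the form of Rpl3 known from muscle, was at a mean of 0.210 FPKM against 18.4 for Rpl3. Rpl10l, a testis form of Rpl10, had no read in any library, and Rpl39l, also known from testis, a mean of 0.0436 FPKM against 16.8 for Rpl39. Rpl22l1 and Rpl22 were level at means of 24.5 ± 2.18 and 24.5 ± 1.28 FPKM (SD over all libraries). Rps27l, a target of p53, had 9.63 FPKM and Rps27 1.64, with 51.7% and 0% of coding stretches unique. Rpl7 had 61.5 FPKM and Rpl7l1 13.3.

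Rps4x, on the X chromosome, had 60.0 FPKM and Rps4l 8.11, so Rps4l was the lower of that pair in every library (5.11 to 13.1 against 52.03 to 69.99). The remaining proteins of the stalk had a mean of 55.5 FPKM for Rplp0, its base, and 44.3 for Rplp2. Rpsa, a small subunit protein also described as a laminin receptor, had 27.97. The other X-linked genes were Rpl39 at 16.8, Rpl36a at 6.51 and Rpl10 at 5.80 FPKM. Symbols under 1 CPM further included Rpl26, at a mean of 0.463 CPM, and Rps29, at 0.813 CPM.

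Between mice the genes varied little. After the means of line and sex were removed, the SD over libraries on the log2 CPM scale was set against a counting error. That error was taken at the gene's mean CPM and the median library size. The SD was above it in all 78 genes, by a median of 1.59 times and by 1.051 to 5.03 times. The library of 3.39 M reads has a larger counting error and is in the SD, so the lowest ratios do not show spread beyond counting. Rps15a was the steadiest, with an SD of 0.05 and a counting error of 0.03. Rpl4 (0.06), Rpl22 (0.07), Rplp0 (0.07) and Rpl15 (0.07) followed. The widest were Rps13 (0.26), Rpl34 (0.26), Rps23 (0.26) and Rpl24 (0.23), all with under 2 CPM and counting errors of 0.21 to 0.23.

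Rps4l was the other of the 5 widest, with an SD of 0.25 against a counting error of 0.10. It ran from 4.83 to 12.4 CPM over all libraries, from 5.47 to 12.4 in Arpp19 and from 6.22 to 7.66 in Tbc1d8. All 13 lines overlapped, and the line test did not call it (edgeR quasi-likelihood F-test, adjusted p = 0.180). No protein-coding transcript with the symbol Rps4l was found in the GENCODE annotation used, so its sequence sharing was not measured.

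Many of the genes rose and fell together from mouse to mouse. With line and sex removed, but not plate, 2599 of 3003 pairs had a positive correlation, with a median pairwise r of 0.18. The genes share libraries, depth and scaling, and pairs of other genes at like levels were not measured. Each gene's r with the mean of the other 77 had a median of 0.50. It reached 0.89 in Rpl13a, 0.88 in Rps3, 0.84 in each of Rplp1, Rpl41 and Rps24, and was lowest at −0.02 in Rps15a, 0.02 in Rpl27, 0.03 in Rpl34 and 0.05 in Rpl5. The median r was 0.65 over the 45 genes with at least 10 CPM and 0.21 over the 33 below, whose counting error is larger. Rps15a (85.9 CPM) and Rpl5 (17.6 CPM) were among those with at least 10 CPM.

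The mean log2 CPM over the 78 genes ran from 3.71 in Gsg1l female replicate 15 to 4.04 in Gsg1l male replicate 13. The next lowest were Kdm3b female replicates 24 and 23, both at 3.74, and the next highest Arpp19 male replicates 4 and 3, at 4.00 and 3.98. Line means ran from 3.81 ± 0.06 in Kdm3b to 3.89 ± 0.06 in Tbc1d8 (SD, n = 8), and all lines overlapped. The female mean was below the male mean in 11 of 13 lines, with Rgs9 and Zswim6 the other way round. The widest gap was in Gsg1l, where females ran from 3.71 to 3.85 and males from 3.83 to 4.04.

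**Figure D3:**
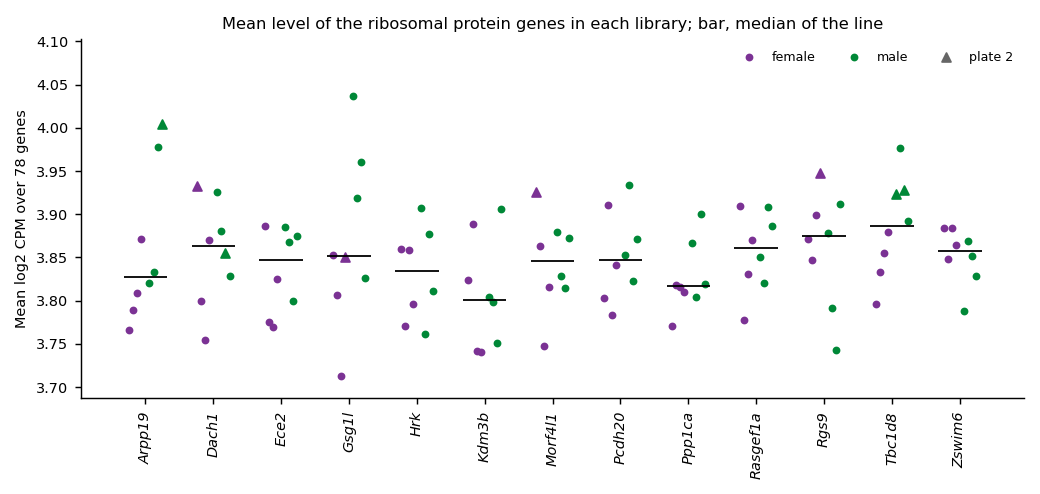
Mean log2 CPM over the 78 ribosomal protein genes in each library, by line; females in purple, males in green, plate 2 as triangles, and bars at the median of 8 libraries. Libraries run from 3.71 to 4.04, both extremes lie in the Gsg1l line, and all lines overlap.

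Relative to the library total, females had slightly less mRNA of several ribosomal proteins. With line as a term, 15 of the 78 genes were lower in females and none was higher (edgeR quasi-likelihood test, Benjamini-Hochberg adjusted p under 0.05 over all genes). Over the 15723 genes tested, 4.5% were lower in females and 4.07% higher. The median difference over the 78 genes was −0.04 on the log2 scale, against 0.00 over all genes tested, and 66 of 78 lay below 0. At an unadjusted p under 0.05, 37 were lower and 0 higher, a count given without the share of all genes at that threshold. DESeq2 called 16 lower and 0 higher. All 15 called differences were under 0.1 on the log2 scale, and the sexes overlapped in every gene. Each was smaller in size than the gene's SD over libraries with line and sex removed. In Rps15a the difference came close to that SD (−0.051 against 0.052), and in Rps21 it was −0.063 against 0.112.

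Rps15a, a small subunit protein, ran from 72.9 to 93.2 CPM in females around a median of 84.2, and from 79.5 to 95.0 in males around 87.4. Its difference was −0.05 ± 0.01 on the log2 scale (SE, adjusted p = 4.03e-04), with the lower female mean in 13 of 13 lines. It is the gene with the smallest spread between mice. Rps15 ran from 105 to 138 CPM in females (median 118) and from 110 to 163 in males (median 123), a difference of −0.07 ± 0.02 (edgeR, adjusted p = 0.00249). Females were the lower in 10 of 13 lines.

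Rpl14, of the large subunit, had medians of 24.95 CPM in females and 26.33 in males and a difference of −0.08 ± 0.02 (edgeR, adjusted p = 0.00366), with females lower in 11 of 13 lines. Rpl14-ps1, a pseudogene symbol dropped by the rule, had a mean of 82.6 CPM (69.6 to 97.5) against 25.7 for Rpl14. Whether reads of Rpl14 were counted under that symbol was not tested. Rpl5, which carries 5S ribosomal RNA into the large subunit and, when free of it, binds the p53 regulator Mdm2, had medians of 17.31 and 18.01 CPM. Its difference was −0.07 ± 0.02 (edgeR, adjusted p = 0.00454), with females lower in 12 lines.

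Further called genes were Rpl3 and Rpl8, both near the peptidyl transferase centre, Rpl4, Rpl13a, Rps18, Rpl10, Rpl22, Rps21 and Rps28. Their differences ran from −0.09 in Rps28 to −0.04 in Rpl22, and females were the lower in 10 to 12 of 13 lines. Rpl10, one of the last proteins to join the large subunit, is the X-linked gene among them: its medians were 4.46 CPM in females and 4.72 in males, a difference of −0.09 ± 0.03 (edgeR, adjusted p = 0.0357). The other X-linked genes were not called, with −0.04 ± 0.02 for Rps4x, 0.07 ± 0.04 for Rpl36a and 0.00 ± 0.03 for Rpl39. By subunit the calls were 6 of 31 genes of the small and 9 of 47 of the large. By level they were 13 of 45 genes with at least 10 CPM and 2 of 33 below.

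**Figure D4:**
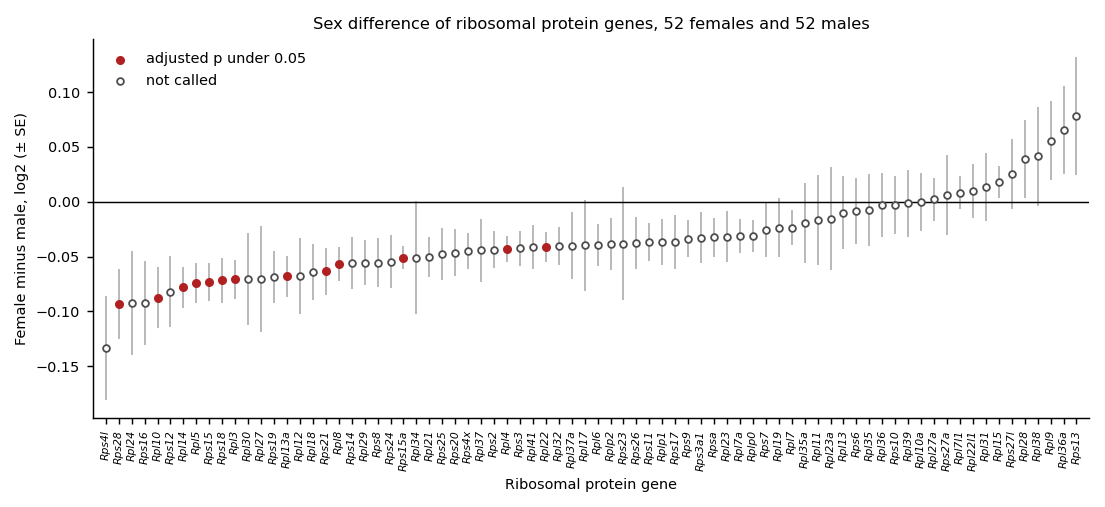
Female minus male difference (log2, bars ± SE) of 76 of the 78 genes from the fit with line as a term, ordered by size; red points are the 13 of these genes with an adjusted p under 0.05. All red points lie below 0, between −0.09 and −0.04, and 64 of the 76 points lie below 0.

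Without the 3 libraries that go against their sex labels, 14 genes were called lower in females and 0 higher, with a median difference of −0.04; Rpl10 and Rpl22 lost their calls and Rps4l gained one. Leaving out a whole line moved the count from 15 to 9 without Gsg1l, to 9 without Tbc1d8 and to 25 without Rgs9, the line in which the female mean was most above the male mean and which holds 1 of those 3 libraries. The line by sex interaction was called in none of the 78 (edgeR, 7 at an unadjusted p under 0.05; 0.0382% of all genes called), so no difference of the sex effect between lines was shown. Some cell type markers moved with sex: of 10 oligodendrocyte markers, summing to a median of 2354 CPM in females and 2236 in males, 2 rose in females. In females 1 of 8 astrocyte markers and 1 of 8 endothelial markers were also higher. One marker was lower in each of the lists of excitatory neurons (of 8), interneurons (of 8), mural cells (of 8), striatal neurons (of 8), pan-neuronal genes (of 7) and choroid plexus (of 7). The median differences were −0.24 in the choroid plexus list, 0.11 in the meningeal list and −0.06 in the mural list. They were 0.06 in the oligodendrocyte and ependymal lists, 0.04 in the astrocyte list and −0.02 in the excitatory neuron list. No meningeal or ependymal marker was called. With scores of the oligodendrocyte, striatal neuron, choroid plexus and erythroid marker lists in the model, 12 genes were lower in females. The median difference was then −0.03. The erythroid score held only the 1 of 6 erythroid markers that passed the filter on low counts. Scores of the other marker lists were not in the model.

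Between the 13 lines 5 of the 78 genes differed: Rps15, Rpl5, Rps2, Rpl10 and Rpl7a (edgeR F-test, adjusted p between 2.29e-04 and 0.0413). Over all genes tested 9.61% differed, so the 5 of 78 were no larger a share than that. Each line was then set against the mean of the other 12. In Tbc1d8 6 genes were called, 4 higher and 2 lower, where 12.4% of all genes were called. In Gsg1l 7 genes were called, 4 higher and 3 lower, against 10.4% of all genes. These 2 lines enter each other's comparison and share the remaining 11, so their values are given side by side and not as support for each other.

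Rps15 had medians of 135 CPM in Tbc1d8 (122 to 149) and 134 in Gsg1l (107 to 163), against 121 over the other 11 lines (105 to 139). All 8 libraries of Tbc1d8 and 6 of 8 of Gsg1l lay above that median, though the ranges overlapped. The differences were 0.16 ± 0.03 (edgeR, adjusted p = 1.92e-04) in Tbc1d8 and 0.13 ± 0.03 (adjusted p = 0.00277) in Gsg1l. Rps2, at the mRNA entry of the small subunit, had medians of 35.97 and 36.23 CPM against 32.9, with 8 of 8 and 7 of 8 libraries above. Its differences were 0.13 ± 0.03 in both lines.

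Rpl5 moved the opposite way. Its medians were 15.3 CPM in Tbc1d8 (14.4 to 17.4) and 15.997 in Gsg1l (14.4 to 19.02), against 17.8 over the other 11 lines (15.3 to 20.8), with 8 of 8 and 6 of 8 libraries below. The differences were −0.18 ± 0.04 (edgeR, adjusted p = 1.19e-04) and −0.12 ± 0.04 (adjusted p = 0.0202). Rps15a was lower as well, by −0.06 ± 0.02 in Tbc1d8 and −0.07 ± 0.02 in Gsg1l, with 8 of 8 and 7 of 8 libraries below the median of the others. The called genes of these lines thus lay in both directions. Over all 78 genes, 59 lay above 0 in Tbc1d8 with a median of 0.05, and 52 in Gsg1l with a median of 0.03, against 0.00 and 0.01 over all genes tested. In females alone the medians were 0.02 and −0.03.

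Rpl7a, from the surfeit locus, was called in Gsg1l alone of the lines. It had a median of 19.6 CPM there (16.8 to 21.7), below the 21.8 of the other 11 lines in 8 of 8 libraries, and 21.4 CPM in Tbc1d8. The difference in Gsg1l was −0.15 ± 0.03 (edgeR, adjusted p = 2.29e-04); whether it differs from that in Tbc1d8 was not tested. Rps18 (0.14 ± 0.04) and Rpl10 (0.16 ± 0.05) were further called in Gsg1l. In Tbc1d8 the others were Rps21 (0.14 ± 0.04) and Rps14 (0.13 ± 0.04), the gene lost in the 5q- syndrome.

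**Figure D5:**
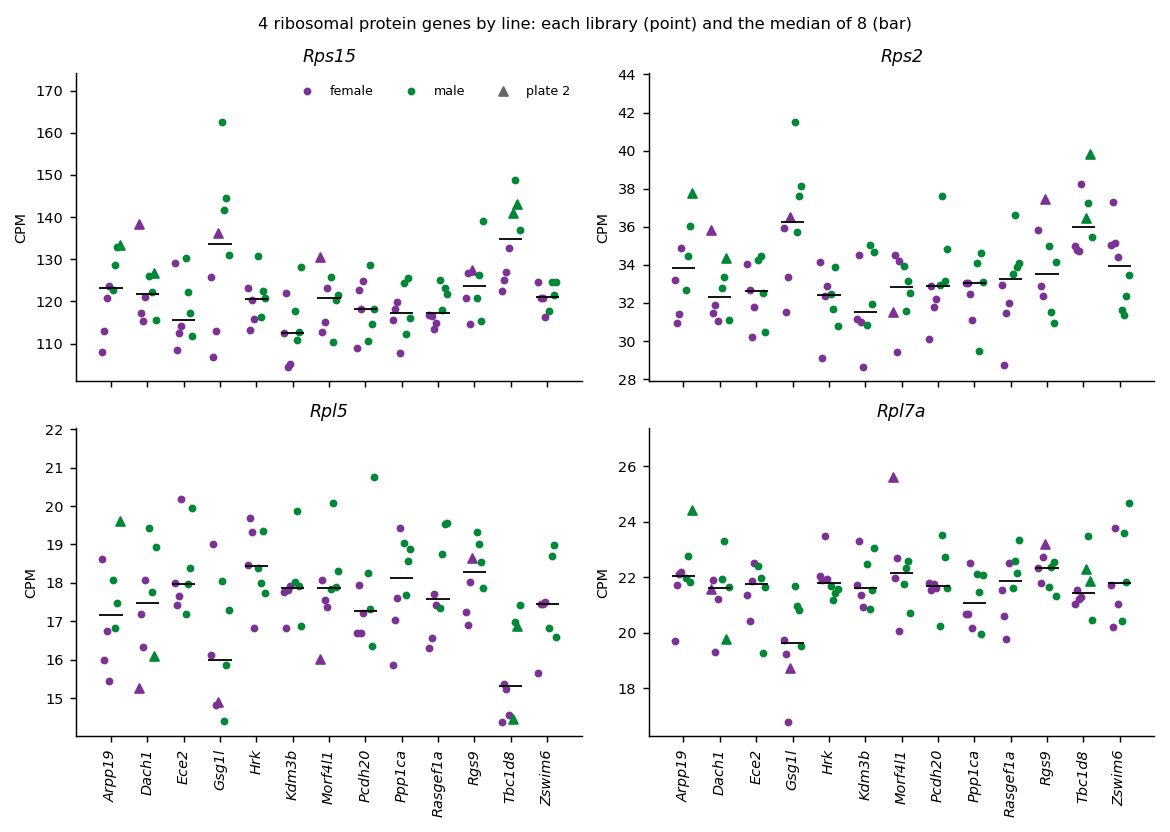
CPM of Rps15, Rps2, Rpl5 and Rpl7a in each library by line; females in purple, males in green, plate 2 as triangles, bars at the median of 8 libraries. Rps15 and Rps2 have their highest medians, and Rpl5 its lowest, in Tbc1d8 and Gsg1l, and Rpl7a its lowest in Gsg1l; in each gene the ranges of Tbc1d8 and Gsg1l overlap that of the other 11 lines pooled.

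Single libraries weighed on the count in Gsg1l, which went from 7 to 4 without male replicate 13 and to 12 without female replicate 14. Fitted in females alone, Tbc1d8 and Gsg1l had 1 called gene each (Rpl5 and Rpl7a), and in males alone 5 and 9. These fits hold 4 mice per line, and the share of all genes called in them is not given here. On plate 1 alone Tbc1d8 had 4 called genes and Gsg1l 6. Marker sums moved with these lines too: excitatory neuron markers had a median of 9098 CPM in Tbc1d8, 9274 in Gsg1l and 8698 in the other 11 lines, and oligodendrocyte markers 2109, 2045 and 2314. With scores of oligodendrocyte, striatal neuron, choroid plexus and erythroid markers in the model 5 and 6 genes were called. The medians over the 78 genes were then 0.02 and 0.01. A score of excitatory neuron markers was not in the model.

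In the other 11 lines no ribosomal protein gene was called against the rest, where few genes of any kind were (edgeR; DESeq2 also called none of the 78). The share of all genes called was 0.165% in Dach1, 0.108% in Rasgef1a, 0.0445% in Rgs9, 0.0318% in Morf4l1, 0.0127% in both Ece2 and Pcdh20, 0.00636% in Arpp19 and 0% in Hrk, Kdm3b, Ppp1ca and Zswim6. Unadjusted p was under 0.05 for between 0 genes in Morf4l1 and 19 in Kdm3b. The share of all genes at that threshold is not given here. In Kdm3b 70 of 78 genes lay below 0, with a median of −0.06, against −0.0009 over all genes tested. Without its library of fewest reads the median over the 78 genes was −0.07. The smallest adjusted p in any of these 11 lines was 0.176, for Rpl21 in Kdm3b at −0.12 ± 0.04. The largest single differences were −0.35 ± 0.10 for Rpl34 in Zswim6 and −0.30 ± 0.09 for Rpl24 in Ppp1ca (edgeR, adjusted p = 0.773 and 1.00), both genes with under 2 CPM.

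Plate 2 held 8 libraries from 6 lines, 4 of each sex. With line and sex as terms, 1 gene differed, where 0.242% of all genes did. Rps24, another gene of Diamond-Blackfan anaemia, ran from 43.98 to 50.8 CPM on plate 2 around a median of 48.6, and from 35.8 to 51.8 on plate 1 around 41.2. The difference was 0.18 ± 0.04 (edgeR, adjusted p = 0.0380). Rpl41 (0.15 ± 0.04) and Rplp1 (0.15 ± 0.04) came next without being called. Of the 78 genes 64 lay above 0, with a median of 0.07 against 0.00 over all genes tested. Oligodendrocyte markers had a median sum of 1972 CPM on plate 2 and 2297 on plate 1, and excitatory neuron markers 9146 and 8715; their part in the plate difference was not tested.

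Other genes of translation were tested by sex in the same fit, where 4.5% of all genes were lower in females and 4.07% higher. Of 3 tested genes for ribosomal proteins outside the symbol rule, none was called (edgeR, 0 at an unadjusted p under 0.05; DESeq2 also called 0). Fau, which encodes a fusion with a ubiquitin-like protein, differed by 0.00 ± 0.04 and Rpl36al by −0.01 ± 0.02. Of 11 elongation factors and partners, Eef2k, the kinase that inhibits elongation factor 2, was lower in females by −0.08 ± 0.02 and Eif5a2 higher by 0.06 ± 0.02. Of 37 initiation factor genes, Eif2s3x, which escapes X inactivation, was higher by 0.56 ± 0.03, Eif4g2 higher by 0.04 ± 0.01 and Eif3f lower by −0.06 ± 0.01. Of 47 genes of ribosome assembly 2 were called. None of 19 genes of mTORC1 and of the control of these mRNAs was (edgeR, 5 at an unadjusted p under 0.05; DESeq2 also called 0). Of the 76 mitochondrial ribosomal protein genes, none was called by sex (edgeR, 6 at an unadjusted p under 0.05; DESeq2 also called 0), and their median was 0.01.

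The same lists were counted in Tbc1d8 and Gsg1l. Over all genes tested 6.79% were lower and 5.66% higher in Tbc1d8, and 5.58% and 4.86% in Gsg1l. Of the 37 initiation factors 12 were lower and 1 higher in Tbc1d8, and 11 were lower and 1 higher in Gsg1l. Eif3c, a core part of initiation factor 3, differed by −0.14 ± 0.02 in Tbc1d8 and −0.16 ± 0.02 in Gsg1l, and Eif4g2 by −0.13 ± 0.02 and −0.16 ± 0.02. Among mTORC1 genes 4 of 19 were lower in Tbc1d8 and 5 in Gsg1l, with none higher; Rptor, the subunit that recruits substrates, differed by −0.09 ± 0.02 and −0.11 ± 0.02. Of the 11 elongation factors and partners none was called in Tbc1d8 (edgeR, 2 at an unadjusted p under 0.05; DESeq2 also called 0), and 1 was lower and 1 higher in Gsg1l. Of the 76 mitochondrial ribosomal protein genes 4 were lower and 3 higher in Tbc1d8, and 4 lower and 6 higher in Gsg1l. Among 47 genes of ribosome assembly 7 were lower and 1 higher in Tbc1d8, and 3 lower and 2 higher in Gsg1l. Ncl, the nucleolar protein nucleolin, differed by −0.24 ± 0.03 and −0.18 ± 0.03.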

How the data were processed

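RNA from dissected cerebral cortex was extracted with RNeasy kits and sequenced as stranded TruSeq libraries, per the labels' protocols. Builds GRCm38 and mm10, HTSeq 0.10.0 and STAR 2.7.3a stand in the submitters' processing notes; the counting mode, strand setting and treatment of reads with several matches are not given in the sources used here. The deposited counts are whole reads per RefSeq symbol, not normalized; 2 symbols were duplicated. The deposited FPKM values (RefSeq and Ensembl) are scaled by length and depth by the authors. The last line of the Ensembl counts was incomplete and was dropped, and 70 of the 78 genes were tested among its 19563 genes.

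Counts were tested with edgeR 4.0.16 (TMM, filterByExpr by line and sex, quasi-likelihood; 15723 genes; R 4.3.3, limma 3.58.1), with line and sex as terms, and a call is an adjusted p (Benjamini-Hochberg over all genes tested) under 0.05. Standard errors are the log2 difference over the square root of F. CPM values use TMM-scaled library sizes, with a prior count of 2 on the log2 scale. Each mouse gave 1 library, and kinship of the mice is not stated in the labels. The sample descriptions hold a number that some mice of the same line and sex share, and its meaning is not given. It was not used, and the tests treat the mice as independent. Libraries within a line and sex differed by a chi-square per degree of freedom of at least 2.55, so none was a second sequencing of another. Repeats across lines or sexes were not searched for, and a second preparation from the same mouse cannot be told by this value. Tested on simulated data drawn from these counts, the fit recovered by sex 47% of 100 genes altered by 5% and called 0.0393% of unchanged genes (15662 genes, changed ones with a mean of at least 30 reads); in Tbc1d8 it recovered 44% of 100 genes altered by 10%.

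The genes, lists and tests were chosen with earlier results of these data known. Named were the genes called by sex, by line or in 1 line, X-linked genes, paralog pairs, stalk genes and Rpsa, the 5 highest and lowest, the 5 widest and steadiest, those beside the limit of 1 CPM, the member of smallest p in a line, and up to 4 called genes of each list; genes of notable sequence sharing, co-variation or plate difference were named after their values were seen. Values of some single genes are not reported here or drawn, though counts and medians include them. Alternatives were DESeq2 1.42.0, other scalings and filters, libraries, lines or plates left out, Ensembl values, each sex alone and a replicate block. Scores of oligodendrocyte, striatal neuron, choroid plexus and erythroid markers as covariates were a further alternative, in which the erythroid score held 1 gene.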

Additional observations from a re-analysis of the deposited data

Results flagged for a closer look

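The mean over the 78 genes and the 5 genes that differed between lines were searched, in each line of 8 mice, for a mouse that stood apart from the nearest other by a large part of the line's range (Dixon's ratio above its 95% limit; chance gives about 1 in 20). Of 78 sets of 8 values 4 were flagged, near what chance gives. Rpl5 stood at 4.32 on the log2 CPM scale in Kdm3b male replicate 22, above the next at 4.18, and at 4.38 in Pcdh20 male replicate 32, above 4.20. Rpl10 stood at 2.14 in Gsg1l female replicate 15, below the next at 2.34; this library also had the lowest mean over all 78 genes. Rpl7a stood at 4.56 in Hrk female replicate 19, above 4.47. None of the 78 genes had a sex difference that was called as differing between lines.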

How the results depend on the processing

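None of the called differences by sex, in 1 line or by plate turned sign in the alternatives run; this does not cover genes that were not called or genes of the other lists. The median over the 78 genes in Gsg1l, 0.03, was −0.03 in females alone. The count lower in females, 15, ran from 9 (without the Gsg1l or the Tbc1d8 line) to 25 (without the Rgs9 line) as lines were left out in turn and from 12 to 15 as each Tbc1d8 or Gsg1l library was (chosen after seeing the data); the other settings gave 11 to 16, and none called a gene higher in females. Replicate numbers do not pair the mice (of 52 pairs of the same number, 3 correlated above 0.1, median −0.12); with the number as a replicate block 14 genes were lower. The 5 genes that differed between lines became 1 without the Tbc1d8 line, 3 in the Ensembl counts (70 genes), 0 in females and 2 in males alone, and 4 to 6 with a library left out. In females alone the calls over all 13 lines went from 13 to 2, with 1 in Tbc1d8 and 1 in Gsg1l; leaving out a library gave 11 to 18 in all, 4 to 9 in Tbc1d8 and 4 to 12 in Gsg1l. The plate call, Rps24, was lost without the filter on low counts and in the lines with both plates alone (0 genes each). The median level, 16.8 FPKM, was 7.07 in the Ensembl FPKM and 15.1 with the symbols below 1 CPM. The cause of these shifts was not tested, beyond the fewer mice or genes that some of the fits hold. Shares of all genes called in these settings are not given here. Calls of Rps28 (lost in 30 of 41 settings), Rps21 (24), Rpl22 (19) and Rpl10 (13) by sex were the least stable, while Rps15a, Rps15, Rpl14, Rpl5, Rpl3 and Rpl4 were called in all. Read number limits the 33 genes under 10 CPM.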
